A study of Homo sapiens with 10 samples.

Results

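The loci of LIN28B and HMGA2 were examined in ChIP-seq peak lists of 5 transcription factors in ER-Src cells. A peak belonged to a locus when its summit, the base with the most reads, lay in chr6:105350000-105560000 (LIN28B) or chr12:66150000-66400000 (HMGA2), in hg19. This rule took 261 of 879550 peaks on chromosomes 1 to 22 and X, with 60 at LIN28B and 201 at HMGA2. ER-Src cells are MCF-10A, a non-tumorigenic breast epithelial line, with a v-Src oncoprotein that is joined to the hormone-binding part of the estrogen receptor and is switched on by tamoxifen. All 10 libraries came from this single line and carried the fusion, and each of FOS, JUN, JUNB, NFKB1 and STAT3 had 1 library from non-transformed cells (labelled EtOH) and 1 from cells transformed with 1 µM 4-hydroxytamoxifen for 12 h. The library names inside the lists give a longer culture for the EtOH samples, so that time and treatment cannot be told apart. The catalogue number of the STAT3 antibody is that of a product against the tyrosine-phosphorylated form. With 1 library per group there was no replicate check and no test between states. All intervals of ratios below are 95% exact binomial intervals that cover counting error only, with no allowance for the number of ratios.

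LIN28B is an RNA-binding protein that blocks the maturation of let-7 miRNAs. The let-7 miRNAs in turn repress many growth-promoting mRNAs, among them those of LIN28B itself and of HMGA2, an architectural chromatin protein that binds AT-rich DNA through its AT-hooks. FOS, JUN and JUNB are AP-1 proteins that bind DNA as dimers, NFKB1 is the NF-κB subunit processed to p50, and STAT3 is activated by cytokines such as IL-6. In ER-Src cells, NF-κB, LIN28B, let-7 and IL-6 are known as an inflammatory circuit that accompanies transformation.

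The miRNAs that link the 2 genes are shown for their shared seed. The 9 mature 5p miRNAs of the let-7 and miR-98 family in RefSeq (GRCh38.p14) all had the seed GAGGUAG at bases 2 to 8, in capitals below, which 11 of 2370 mature miRNAs in the table carry. The members differed only outside the seed, as these 3 show, 5′ to 3′.
hsa-let-7a-5p: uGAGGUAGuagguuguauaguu
hsa-let-7g-5p: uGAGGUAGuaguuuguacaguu
hsa-miR-98-5p: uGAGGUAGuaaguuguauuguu

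The 250 bases before each of the 2 RefSeq start sites of LIN28B are shown because the distances below are taken from 1 start site only. They are on the plus strand of GRCh38.p14, at chr6:104940715-104940964 and chr6:104956857-104957106. The peak lists are in hg19, and neither start site was matched to the one used for distances below. The GC content was 73.6% in the upstream one and 38.4% in the downstream one. Neither held TGANTCA (AP-1), TTCNNNGAA (STAT) or the NF-κB consensus on either strand, letters found in 6.57%, 6.57% and 9.96% of 35116 windows of the same kind, so no base is in capitals.
LIN28B upstream start: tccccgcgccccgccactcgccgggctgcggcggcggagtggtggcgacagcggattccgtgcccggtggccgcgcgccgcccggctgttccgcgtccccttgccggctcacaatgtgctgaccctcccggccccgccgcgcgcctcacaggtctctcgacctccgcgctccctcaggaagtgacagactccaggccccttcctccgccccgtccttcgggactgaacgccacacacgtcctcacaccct
LIN28B downstream start: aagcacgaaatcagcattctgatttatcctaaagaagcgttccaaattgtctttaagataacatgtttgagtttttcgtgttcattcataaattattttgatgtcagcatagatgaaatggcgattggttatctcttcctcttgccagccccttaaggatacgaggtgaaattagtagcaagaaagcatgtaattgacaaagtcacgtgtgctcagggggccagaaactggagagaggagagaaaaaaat

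After the authors kept 1 read per position, the libraries held 4837474 to 22082403 reads and the lists 13252 to 164605 peaks. The shallowest pair was that of NFKB1, which had 4837474 reads before and 9674390 after transformation. For all 5 proteins the list of transformed cells was the longer one. Peaks whose summits with 150 bp on each side overlapped were joined into a site, which gave 248897 sites in the genome, 14 at LIN28B and 61 at HMGA2. The pileup is the number of reads, each extended to the fragment length, over the summit. For comparisons between states it was scaled to 1000000 filtered reads, and this value is called the scaled pileup.

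HMGA2 was the locus with more listed peaks per Mb, in lists called without a control. Per Mb, the HMGA2 window held 2.22 to 3.51 times as many peaks as the genome average of the same list, in all 10 lists. The LIN28B window held 0.745 to 1.11 times the average in 9 lists, and no NFKB1 peak of non-transformed cells. At LIN28B, FOS had 8 peaks in non-transformed and 13 in transformed cells, JUN 6 and 9, JUNB 4 and 7, NFKB1 0 and 5, and STAT3 3 and 5. At HMGA2, FOS had 24 and 31 peaks, JUN 20 and 34, JUNB 17 and 21, NFKB1 3 and 22, and STAT3 9 and 20. Every protein thus had more peaks in transformed cells at both loci. The local background differed between the loci. In transformed cells, an NFKB1 pileup of 11 was 8.21 times the local background 95.0 kb downstream of LIN28B and 6.87 times 59.2 kb upstream of HMGA2. A FOS pileup of 8 was 4.21 times it 119.5 kb downstream of LIN28B and 3.46 times 3.5 kb downstream of HMGA2. Whether the regional read level bears on the peak counts was not tested.

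Most binding at LIN28B lay far from the start site used (chr6:105404923). Of the 60 peaks, 46 were more than 100 kb downstream, in 7 of the 14 sites. Upstream were 3 peaks, in the first 50 kb downstream 4, and from 50 to 100 kb downstream 7. The summit nearest to the start site was 5049 bp away, at chr6:105409822-105410122, a JUNB peak of transformed cells with a pileup of 8 and no peak in the other 9 lists. In RefSeq, LIN28B overlaps LIN28B-AS1 and RNU6-1106P and is followed by POPDC1, which encodes a membrane protein of the Popeye family. Whether the sites lie in exons, in introns or outside the gene was not determined, because the annotation used here is of GRCh38.

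**Figure D1:**
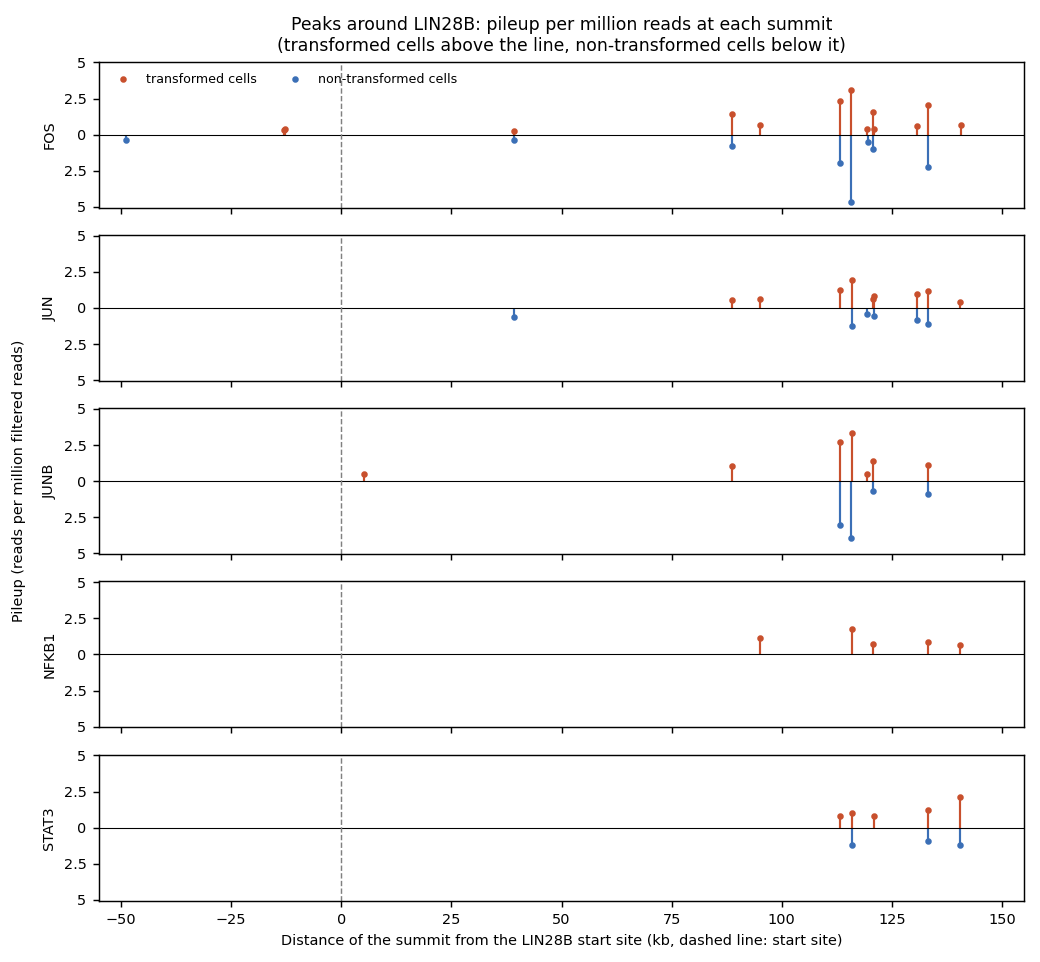
Pileup per 1000000 filtered reads (vertical axis) at each peak summit of the LIN28B locus against its distance in kb from the start site, 1 panel per protein, with transformed cells above and non-transformed cells below the line. Most peaks (46 of 60) lie over 100 kb downstream, where FOS in non-transformed cells reaches 4.67.

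The strongest LIN28B site was 115.8 kb downstream (chr6:105520593-105520936) and had peaks in 9 lists. FOS had a pileup of 87 in non-transformed and 69 in transformed cells, JUN 20 and 36, and JUNB 36 and 53. NFKB1 had no peak in non-transformed cells and a pileup of 17 in transformed cells, and STAT3 had 13 and 9. It was the LIN28B site with the highest fold enrichment over local background in 8 lists, among them all 6 AP-1 lists, and STAT3 in transformed cells was the exception among the 9 that have a peak here. The 5 summits of transformed cells lay within 38 bp. The scaled FOS pileup was 0.669 times as high in transformed cells (0.480 to 0.928), beside a genome median of 0.949. It was the only ratio whose interval left out 1 among those at LIN28B, 7 of FOS, 4 of JUN, 4 of JUNB and 3 of STAT3. By fold enrichment FOS was at 46.9 before and 32.9 after transformation.

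The site 133.2 kb downstream (chr6:105537931-105538271) also had peaks in 9 lists, without NFKB1 in non-transformed cells. The FOS pileup was 42 in non-transformed and 46 in transformed cells, JUN 18 and 22, JUNB 8 and 18, and STAT3 10 and 11, and NFKB1 had 8 in transformed cells. The ratios of the scaled pileup ran from 0.923 for FOS (0.594 to 1.44) to 1.34 for STAT3 (0.517 to 3.52), and none was distinguishable from 1.

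The third site with all 5 proteins in transformed cells was 120.8 kb downstream (chr6:105525464-105526065) and held 10 peaks of 8 lists. FOS had 18 in non-transformed and 34 in transformed cells, JUN 9 and 15, and JUNB 6 and 22. NFKB1 and STAT3 each had a pileup of 7 in transformed cells and no peak in non-transformed cells. At 602 bp it was the longest LIN28B site, and the highest summits of the 5 proteins were spread over 235 bp in transformed cells, where FOS and JUN each had 2 peaks in it. The JUNB ratio, 2.14, had an interval of 0.840 to 6.44.

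Other LIN28B sites lacked 1 or more proteins. At 113.2 kb downstream (chr6:105518004-105518323), FOS had 37 and 52, JUNB 28 and 43, and JUN 23 and STAT3 7 in transformed cells alone. At 140.5 kb downstream (chr6:105545273-105545647), STAT3 had 13 in non-transformed and 19 in transformed cells, a ratio of 1.78 (0.835 to 3.92), and was the sole protein there before transformation. FOS with 15, JUN with 8 and NFKB1 with 6 had peaks at that site in transformed cells. At 95.0 kb downstream (chr6:105499717-105500055), FOS with 15, JUN with 11 and NFKB1 with 11 had peaks in transformed cells and no list of non-transformed cells had any. The single site lost was 48.8 kb upstream (chr6:105355981-105356281), a FOS peak of non-transformed cells with a pileup of 7.

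Binding at HMGA2 spread over the whole window. Of the 201 peaks, 37 were upstream of the start site (chr12:66218240), 37 in the first 50 kb downstream, 39 from 50 to 100 kb and 88 beyond 100 kb. Within 5 kb of the start site used were 12 peaks, against 0 at LIN28B, whose 2 RefSeq start sites, 16.1 kb apart in GRCh38, were not placed in hg19. The nearest summit was 166 bp upstream (chr12:66217924-66218224), a JUN peak of transformed cells with a pileup of 11 and no peak in any other list. In RefSeq, HMGA2 overlaps RPSAP52, a transcribed pseudogene, and the antisense RNA genes HMGA2-AS1 and HMGA2-AS2.

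**Figure D2:**
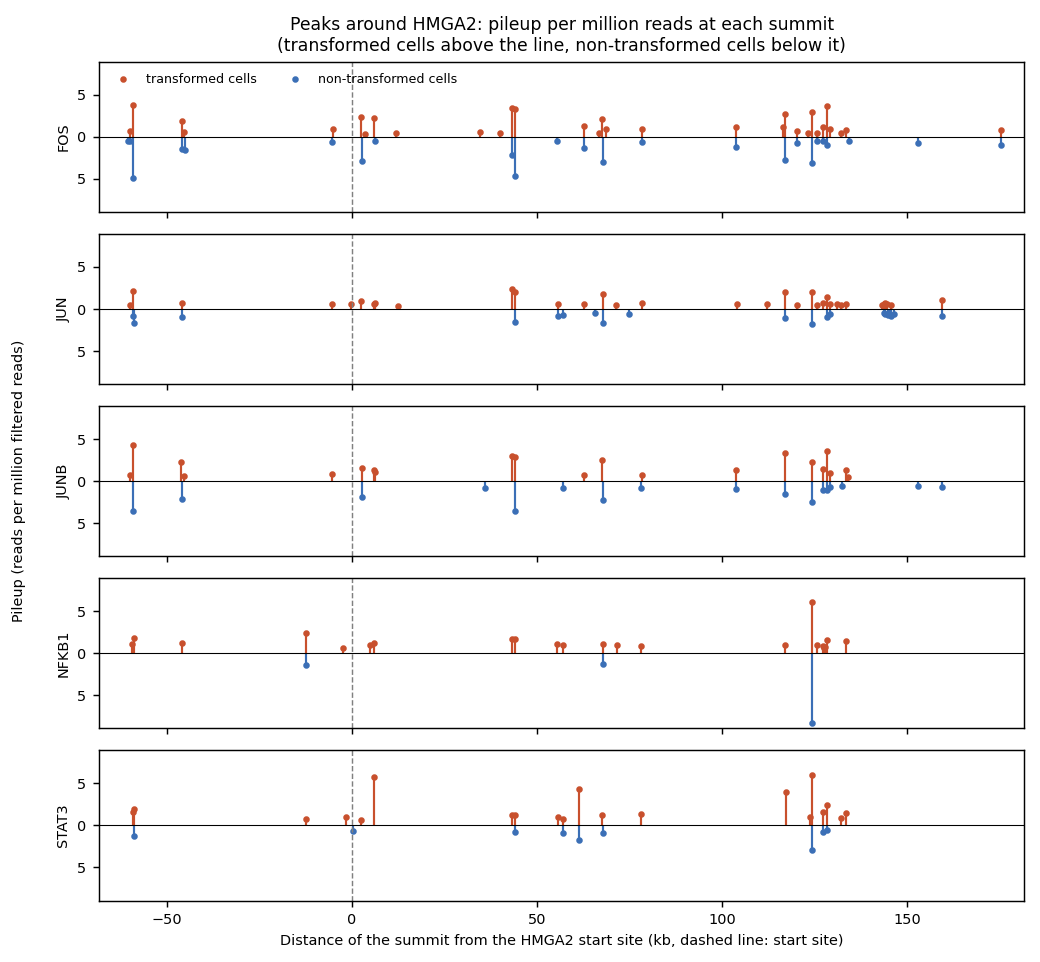
Pileup per 1000000 filtered reads (vertical axis) at each peak summit of the HMGA2 locus against its distance in kb from the start site, 1 panel per protein, with transformed cells above and non-transformed cells below the line. The tallest NFKB1 peaks of both states, 8.27 in non-transformed and 6.10 in transformed cells, stand at the same site 124.5 kb downstream.

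The site 124.5 kb downstream of the HMGA2 start (chr12:66342520-66342861) was in all 10 lists, as were 2.23% of all sites in the genome. The FOS pileup was 58 in non-transformed and 65 in transformed cells, JUN 28 and 38, JUNB 23 and 36, NFKB1 40 and 59, and STAT3 32 and 54. It was the top HMGA2 site of both proteins outside AP-1 in both states. Its NFKB1 peak ranked 349th of 13252 by significance in non-transformed and 830th of 73822 in transformed cells. The scaled STAT3 pileup was 2.06 times as high in transformed cells (1.30 to 3.29), beside a median of 1.71 over all STAT3 sites of both states in the genome. That of NFKB1 was 0.738 times as high (0.485 to 1.13), and its fold enrichment 1.1 times, and the ratios of the AP-1 proteins, 0.912 to 1.17, also had intervals that held 1. The 5 summits lay within 39 bp in non-transformed and 25 bp in transformed cells.

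One other HMGA2 site was in all 10 lists, 67.8 kb downstream (chr12:66285820-66286203). FOS had 55 in non-transformed and 46 in transformed cells, JUN 26 and 32, JUNB 21 and 39, NFKB1 6 and 11, and STAT3 10 and 11. At 44.1 kb downstream (chr12:66262128-66262470), NFKB1 had 16 in transformed cells and no peak in non-transformed cells. There FOS had 86 in non-transformed and 72 in transformed cells, JUN 25 and 37, JUNB 33 and 46, and STAT3 8 and 11. The FOS ratio at that site was 0.706 (0.509 to 0.977), an interval that held the genome median ratio of FOS, 0.949.

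The site 128.3 kb downstream (chr12:66346373-66346796) was bound in both states and had a higher scaled pileup in transformed cells for FOS, JUNB and STAT3. FOS had a pileup of 19 in non-transformed and 80 in transformed cells, a ratio of 3.55 (2.13 to 6.20). JUNB had 10 and 56, a ratio of 3.26 (1.65 to 7.17). STAT3 had 6 and 22, a ratio of 4.47 (1.76 to 13.5) beside a genome median of 1.71, with summits 115 bp apart in the 2 states. JUN had 15 and 26, a ratio of 1.49 (0.760 to 3.02), and NFKB1 had 15 in transformed cells alone. The intervals of FOS, JUNB and STAT3 left out 1 and that of JUN did not, which does not show that JUN differed from them.

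The site 117.2 kb downstream (chr12:66335153-66335664) had AP-1 in non-transformed cells and all 5 proteins in transformed cells. FOS had 52 and 61, a ratio of 0.989 (0.672 to 1.46). JUN had 16 and 38, a ratio of 2.04 (1.11 to 3.92), and JUNB 14 and 52, a ratio of 2.16 (1.18 to 4.23). The genome median ratios were 1.29 for JUN and 0.964 for JUNB. NFKB1 with 10 and STAT3 with 36 had peaks in transformed cells alone. The 5 summits of transformed cells were spread over 198 bp, since the STAT3 summit lay 181 bp from that of FOS. The highest FOS pileup of the locus was 59.2 kb upstream (chr12:66158815-66159179), with 90 in non-transformed and 83 in transformed cells. JUN had 14 and 40 there, a ratio of 2.45 (1.31 to 4.88). That JUN peak of transformed cells was 729 bp long and also spanned a second JUN summit of non-transformed cells with a pileup of 27, against which the ratio was 1.27 (0.762 to 2.16). JUNB had 33 and 67, and NFKB1 with 11 and STAT3 with 14 had peaks in transformed cells alone.

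Close to the HMGA2 start, 6.1 kb downstream (chr12:66224070-66224685), a single FOS peak with a pileup of 9 stood in non-transformed cells. In transformed cells FOS had 49, JUN 13, JUNB 21, NFKB1 12 and STAT3 52. The ratio of FOS was 4.59 (2.23 to 10.6), but the FOS summits of the 2 states lay 265 bp apart in this site of 616 bp, so that it compares different positions. At 43.2 kb downstream (chr12:66261243-66261598), FOS alone had a peak in non-transformed cells, with 41. In transformed cells FOS had 77, JUN 44, JUNB 47, NFKB1 16 and STAT3 11, and the FOS ratio was 1.58 (1.07 to 2.37). At 2.6 kb downstream (chr12:66220688-66221009), FOS had 54 and 53 and JUNB 17 and 24, and JUN with 18 and STAT3 with 6 had peaks in transformed cells alone.

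One NFKB1 site of non-transformed cells had no AP-1 protein. It was 12.3 kb upstream of HMGA2 (chr12:66205736-66206078), where NFKB1 had 7 in non-transformed and 23 in transformed cells, a ratio of 1.64 (0.683 to 4.53), and STAT3 had 7 in transformed cells. At HMGA2, 8 of 61 sites had no AP-1 peak in either state, beside 8.68% of all sites in the genome, and at LIN28B there were 0 of 14. Among the HMGA2 sites of non-transformed cells alone, the most significant were 153.1 kb downstream (chr12:66371145-66371498), with FOS at 14 and JUNB at 5, 146.5 kb downstream (chr12:66364541-66364841), with JUN at 10, and 74.9 kb downstream (chr12:66292982-66293282), also with JUN at 10.

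Sites with all 5 proteins were seen at both loci in transformed cells. They made up 3 of 14 LIN28B sites and 11 of 61 HMGA2 sites, beside 14.8% of all sites in the genome. In non-transformed cells the counts were 0 and 2, beside 2.41%, and in neither state did they stand far from the genome share. All 3 AP-1 proteins were present at 3 LIN28B and 7 HMGA2 sites in non-transformed cells, and at 5 and 18 in transformed cells, beside 16.1% and 30.2% of all sites. JUN stood without FOS or JUNB in either state at 14 of its 38 HMGA2 sites and at 0 of its 10 LIN28B sites, beside 22.5% of JUN sites in the genome. One of these 14, at 58.8 kb upstream, lay under FOS and JUNB peaks whose summits are in the neighbouring site. The sites at 143.4, 144.0, 144.7, 145.3, 145.6 and 146.5 kb downstream, which follow each other in a single stretch, were also among the 14. Sites in only 1 list numbered 26 at HMGA2 and 4 at LIN28B, beside 38.7%. Summits that share a site lie close together in part by construction, since a site joins summits whose 150 bp on each side overlap. In transformed cells the median distance between summits over both loci was 11 bp for FOS and JUNB (25 sites), 16 bp for FOS and JUN (29 sites), 18.5 bp for FOS and NFKB1 (18 sites), 17.5 bp for FOS and STAT3 (18 sites) and 31 bp for NFKB1 and STAT3 (19 sites). The genome medians were 17, 18, 27, 25 and 31 bp, so that NFKB1 and STAT3 showed the same median as elsewhere.

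In the full lists, sites found only in transformed cells outnumbered those found only in non-transformed cells. With peaks of any protein, 4 LIN28B and 21 HMGA2 sites were in transformed cells alone, beside 34.6% of all sites in the genome, and 1 and 9 in non-transformed cells alone, beside 15.0%. For NFKB1, all 5 LIN28B sites and 18 of 21 HMGA2 sites were in transformed cells alone, beside 82.0% of NFKB1 sites in the genome. For STAT3 these were 2 of 5 and 12 of 21, beside 53.0%. For FOS they were 5 of 13 and 11 of 35, beside 34.5%, for JUN 4 of 10 and 19 of 38, beside 43.2%, and for JUNB 3 of 7 and 8 of 25, beside 37.3%. Sites of non-transformed cells alone numbered 0 and 0 for NFKB1, beside 1.79%, 0 and 1 for STAT3, beside 13.2%, 1 and 4 for FOS, beside 10.7%, 2 and 6 for JUN, beside 11.6%, and 0 and 5 for JUNB, beside 15.8%. One of the 6 JUN sites, at 58.8 kb upstream, lay under the long JUN peak of transformed cells described above. These counts do not set the gains and losses at both loci apart from those of the whole lists.

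**Figure D3:**
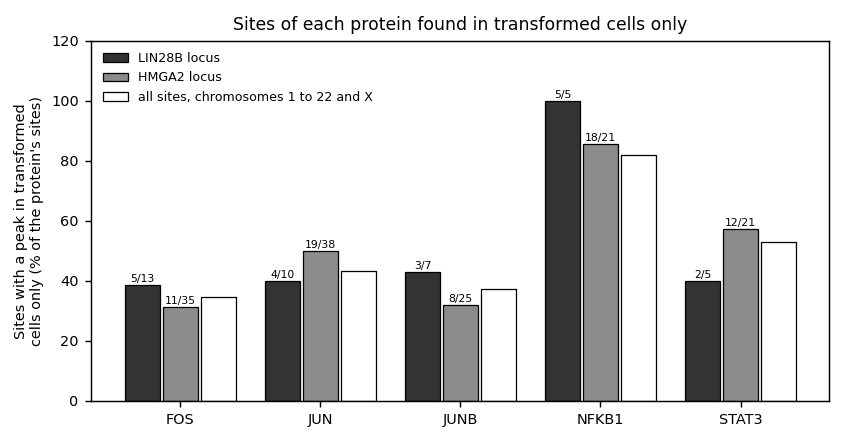
Share of each protein's sites (vertical axis, percent) that had a peak in transformed cells and none in non-transformed cells, at LIN28B (black), at HMGA2 (grey) and over all sites (white), with counts above the bars. NFKB1 has the highest share in all 3, with 5 of 5, 18 of 21 and 82.0%.

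The length of the lists moved with these counts. When the longer list of each protein was cut to the length of the shorter one by significance, the sites of transformed cells alone numbered 1 of 11 at LIN28B and 3 of 43 at HMGA2, beside 16.3% in the genome. Those of non-transformed cells alone were then 3 and 14, beside 29.0%, so that the order of the full lists was turned round at both loci and in the genome. After this cut, NFKB1 had 1 site at LIN28B and 3 at HMGA2, of which 1 and 0 were in transformed cells alone, beside 31.4%, and 0 and 1 in non-transformed cells alone, beside 30.4%. STAT3 had 0 of 3 and 5 of 14 in transformed cells alone, beside 31.3%, and 1 and 4 in non-transformed cells alone, beside 30.5%. For FOS these were 3 of 11 and 4 of 28 in transformed cells alone, beside 20.9%, and 3 and 5 in non-transformed cells alone, beside 19.9%. For JUN they were 2 of 8 and 6 of 25, beside 25.5%, and 2 and 9, beside 24.4%, and for JUNB 1 of 5 and 6 of 23, beside 24.8%, and 0 and 5, beside 23.9%. All 5 proteins of transformed cells then shared 0 LIN28B sites and 1 HMGA2 site, beside 4.36%. The depth of the NFKB1 libraries also differed. Scaled to the depth of the non-transformed library, the NFKB1 pileup of transformed cells reached the lowest pileup listed within 1 Mb in non-transformed cells at 1 of the 5 LIN28B sites and at 10 of the 18 HMGA2 sites gained. For STAT3, whose transformed library was the shallower one, it did so at 2 of 2 and 12 of 12. The STAT3 libraries also differed in reads kept, 53.3% in non-transformed and 77.1% in transformed cells, and in fragment length, 150 and 119 bp. For FOS it did so at 3 of 5 and 10 of 11, for JUN at 4 of 4 and 14 of 19, and for JUNB at 1 of 3 and 8 of 8. The part of list length and depth in the gains was not tested.

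Where a protein had a peak in both states, most scaled pileups were within 2-fold of each other. At HMGA2, 3 of 20 FOS sites were over 2-fold higher in transformed cells, beside 8.54% in the genome, and 1 was over 2-fold lower, beside 5.99%. Without the site at 6.1 kb, whose FOS summits differ in position, 2 of 19 were higher. JUN was over 2-fold higher at 2 of 13, beside 14.8%, JUNB at 2 of 12, beside 7.74%, NFKB1 at 0 of 3, beside 9.26%, and STAT3 at 4 of 8, beside 39.1%. Without the site at 59.2 kb upstream, JUN was higher at 1 of 12. None of the sites of JUN, JUNB, NFKB1 and STAT3 was over 2-fold lower, beside 0.807%, 7.02%, 5.92% and 0.978%. At LIN28B, 1 of 4 JUNB sites was over 2-fold higher, and no site of FOS (7), JUN (4) or STAT3 (3) was. No site of these proteins at LIN28B was over 2-fold lower. Summed over the sites of both states, STAT3 at HMGA2 was 2.0 times as high in transformed cells (1.57 to 2.57), and 1.17 times once the genome median ratio of STAT3 was divided out. The other sums at HMGA2 were 1.07 for FOS (0.960 to 1.18), 1.22 for JUN (1.02 to 1.46), 1.22 for JUNB (1.03 to 1.45) and 0.877 for NFKB1 (0.620 to 1.25). Without those sites, FOS was at 1.02 (0.914 to 1.13) and JUN at 1.13 (0.935 to 1.37), so that the interval of JUN then held 1. With its genome median ratio of 1.29 divided out, JUN at HMGA2 was at 0.946. JUNB at HMGA2 was at 1.27 with its own genome median ratio divided out, and at 1.09 with −log10 q of at least 10. At 2 of its 12 sites the JUNB interval lay above 1. By fold enrichment NFKB1 was at 1.29. At LIN28B the sums were 0.961 for FOS (0.797 to 1.16), 1.30 for JUN (0.930 to 1.84), 1.02 for JUNB (0.764 to 1.36) and 1.32 for STAT3 (0.818 to 2.14), all with 1 inside the interval.

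**Figure D4:**
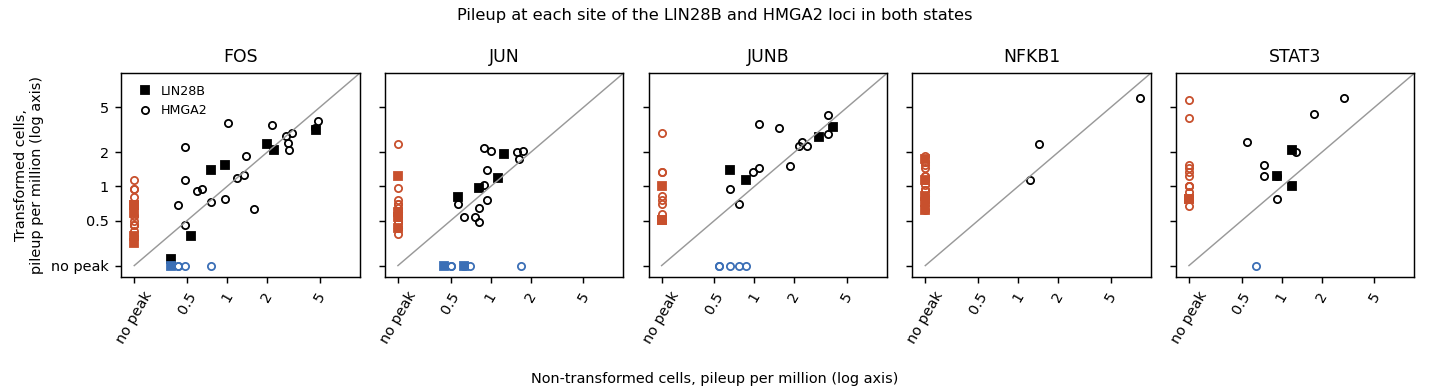
Pileup per 1000000 filtered reads in non-transformed cells (horizontal, log axis) and transformed cells (vertical, log axis) at each site of LIN28B (squares) and HMGA2 (circles), 1 panel per protein. Black points have a peak in both states, red ones in transformed and blue ones in non-transformed cells alone, set at "no peak", and on the grey line both states are equal. Of the 8 STAT3 sites of both states at HMGA2, 7 lie above the line, beside 25010 of 30047 such sites in the genome.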

How the data were processed

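ChIP-seq peak lists of 10 samples were used, 1 per protein and state, grouped by the sample labels. Per the submitters' processing notes, reads were aligned with Bowtie to hg19, and peaks were called with MACS2 (2.0.10.20131216 per the file headers) in each library, without a control, with 36 bp reads, 1 read per position, a local background of 1000000 bp and a q-value cutoff of 0.05. The deposited pileup is a signal that the authors did not scale by depth, the deposited fold enrichment is a ratio to local background, and the deposited significance is −log10 of p and q. Fragments were extended to 114 to 150 bp, which enters the pileup. No genome of hg19 was at hand, so no sequence under a peak was read.

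Here, summits with 150 bp on each side were joined when they overlapped by 1 bp (Python 3.11.15, numpy 2.4.6, pandas 2.3.3, scipy 1.17.1). The joining was tested on simulated data. At a site with several peaks of a protein, the highest was used. Ratios are of the scaled pileup, per 1000000 filtered reads, and over 2-fold counted as a call. Densities are over the span from the first to the last summit of each chromosome. The members, the lists and the rules were chosen with earlier results of these data known. Sites were named by rule, in each locus: the 5 sites in most lists, that nearest to the start site, the one with the highest fold enrichment of each list, those of NFKB1 in non-transformed cells, up to 5 with STAT3 or NFKB1 in transformed cells and neither before, and up to 3 of non-transformed cells alone. Alternatives were windows of 50 bp, whole peaks, −log10 q of at least 10, a scaled pileup of at least 1, lists of equal length, the 50 kb around the start site, fold enrichment, centring on the genome median ratio, summed peaks and the nearest pair of summits. Leaving out the NFKB1 lists, and leaving out the FOS site 6.1 kb downstream and the JUN site 59.2 kb upstream of HMGA2, were added after seeing the data. Other sites whose summits differ in position between states stayed in. Among them were FOS 39.2 kb downstream of LIN28B, with summits 142 bp apart, and STAT3 128.3 kb downstream of HMGA2, 115 bp apart.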

Additional observations from a re-analysis of the deposited data

How the results depend on the processing

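Of 88 values recomputed under alternatives, 63 stayed within their limit, 24 moved past it and 1 reversed. The limit was 1.5 times for a count, the counting interval for a ratio, and the interval of the median over sites for a distance. Windows of 50 bp, whole peaks and leaving out the NFKB1 lists moved no count past its limit. With −log10 q of at least 10, LIN28B had 8 sites, 0 with all 5 proteins and 2 in transformed cells alone, and HMGA2 had 25, 2 and 10. With a scaled pileup of at least 1, LIN28B had 7 sites, 1 of them with all 5 proteins, and HMGA2 had 24, 7 with all 5 and 8 in transformed cells alone. With lists of equal length, the sites with all 5 proteins numbered 0 at LIN28B and 1 at HMGA2, beside 4.36% in the genome. Those in transformed cells alone were 1 and 3, beside 16.3%, and were then fewer than those in non-transformed cells alone. Within 50 kb of the start sites were 5 LIN28B sites, 0 with all 5 proteins, and 19 HMGA2 sites, 3 with all 5 proteins and 9 in transformed cells alone. Each of these settings keeps fewer peaks by construction. Except for lists of equal length, no genome share was taken under them, so their counts cannot be set beside the genome. Centred on the genome median ratio, the summed ratio of STAT3 was 0.774 at LIN28B and 1.17 at HMGA2, and that of JUN at HMGA2 was 0.946, the reversal. By fold enrichment, JUNB at HMGA2 was 1.5 and NFKB1 at HMGA2 1.29, and the cause was not tested. No distance between summits left its interval. No paired analysis was possible because each group has 1 sample and the labels carry no replicate numbers. The lowest pileup listed was 4 or 5 in each library, and a site without a listed peak was not shown to be unbound.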

Other observations

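The sites below fall outside the naming rule and were chosen after their values were seen. From 143.4 to 146.5 kb downstream of the HMGA2 start, 6 sites had JUN peaks and no peak of any other protein. In that stretch the JUN pileup was 8 in transformed cells alone at 143.4 kb, 9 in non-transformed and 13 in transformed cells at 144.0 kb, and 12 and 10 at 144.7 kb. It was 8 in non-transformed cells alone at 145.3 kb, 13 and 9 at 145.6 kb and 10 in non-transformed cells alone at 146.5 kb. The ratios at 144.0, 144.7 and 145.6 kb had intervals that held 1.

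STAT3 alone had peaks 61.4 kb downstream of HMGA2 (chr12:66279527-66279829), with a pileup of 19 in non-transformed and 39 in transformed cells, a ratio of 2.50 (1.41 to 4.58). The genome median of the STAT3 ratio, 1.71, lay within that interval. At 58.8 kb upstream (chr12:66159263-66159598), next to the highest FOS site, NFKB1 had a summit with a pileup of 18 in transformed cells, STAT3 summits with 14 and 18, and JUN one with 27 in non-transformed cells. The FOS and JUNB peaks of both states and the JUN peak of transformed cells, 717 to 762 bp long, also covered this site, with their summits in the neighbouring one. At 45.2 kb upstream (chr12:66172865-66173178), FOS had 30 in non-transformed and 14 in transformed cells, a ratio of 0.393 (0.193 to 0.765), the sole site of either locus that was over 2-fold lower. At 133.6 kb downstream (chr12:66351628-66351973), all 5 proteins had peaks in transformed cells, where the pileup of FOS was 18, that of JUN 11, of JUNB 21, of NFKB1 14 and of STAT3 13, and no list of non-transformed cells had any.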
